A study of Mus musculus with 2 samples.

Results

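Cytosolic ribosomal protein genes were compared between bone marrow-derived macrophages of mice without functional c-Maf (c-Maf-/-) and of mice with 1 functional copy (c-Maf+/-), both taken 5 h after lipopolysaccharide (LPS). Members were taken by name from the array's probe annotation: every gene called Rpl or Rps with a number, plus Rplp0, Rplp1, Rplp2 and Rpsa, leaving out the Rps6k kinase genes and names marked as pseudogenes by "-ps". The names gave 86 genes of 34650 on the array, with 194 probes of 55681. Of these, 45 encode large subunit proteins and 31 small subunit proteins, together the 76 core genes, 9 are paralogs or copies of core genes, and Rps19bp1 encodes a protein that binds Rps19 and is no part of the ribosome. The array measured 83 of the 86 with 188 probes, and Rpl10l, Rpl39l and Rpl3l were not well above background on either array.

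Each genotype was represented by 1 preparation on 1 array, so no difference below has a replicate check and no p-value was computed. Marrow cells had grown for 5 days with M-CSF from CMG14-12 medium, the growth factor that turns marrow progenitors into macrophages, before 100 ng/ml LPS was added, and each array received Cy3-labelled material made from 50 ng of RNA. Cells without LPS were not analysed here, so the values describe LPS-treated macrophages of both genotypes, and the age of the mice, their strain and the deleted stretch of the gene are not given in the sources used here. The c-Maf protein is a transcription factor of the basic leucine zipper family that is abundant in macrophages.

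A ribosome is built from a small subunit, which holds the mRNA at the decoding site, and a large subunit, which joins the amino acids, and each contains ribosomal RNA and many small proteins. The proteins are made in the cytoplasm and carried to the nucleolus, where assembly factors fit them to the RNA. Ribosomal protein mRNAs are among the most abundant of the cell, and many begin with a run of pyrimidines directly at the cap, the terminal oligopyrimidine (TOP) motif, through which mTOR and the RNA-binding protein Larp1 control their translation.

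The TOP motif is what these genes are best known to share in sequence, so the bases around the annotated transcript start are shown for members that the values below turn on. The first 6 have a TOP-like start, here a run of at least 5 pyrimidines beginning with C within 5 bases of the start annotated by RefSeq on GRCm38.p6. Each line runs 5′ to 3′ from 30 bases before the start to the 30th base of the transcript, and capitals mark the pyrimidine run. RefSeq lists 2 starts each for Rps24 and Rps27l, and the run is at the start shown but not at the other.
Rpl13a, chr7:45128716-45128775 (minus strand): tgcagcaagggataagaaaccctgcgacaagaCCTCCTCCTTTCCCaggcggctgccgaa
Rpl22l1, chr3:28805478-28805537 (plus strand): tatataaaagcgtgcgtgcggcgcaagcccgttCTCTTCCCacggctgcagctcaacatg
Rps27, chr3:90213619-90213678 (minus strand): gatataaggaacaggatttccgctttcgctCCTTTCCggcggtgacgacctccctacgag
Rps27l, chr9:66946056-66946115 (plus strand): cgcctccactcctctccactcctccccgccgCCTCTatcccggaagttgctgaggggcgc
Rps24, chr14:24490648-24490707 (plus strand): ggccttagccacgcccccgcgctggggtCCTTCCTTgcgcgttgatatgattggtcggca
Rpl15, chr14:18270957-18271016 (minus strand): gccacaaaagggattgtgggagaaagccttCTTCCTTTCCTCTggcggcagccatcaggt
No such run was found at the start of the next 4, so no base is in capitals.
Rps19bp1, chr15:80264277-80264336 (minus strand): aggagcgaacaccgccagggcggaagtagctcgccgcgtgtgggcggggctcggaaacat
Rpl7l1, chr17:46782627-46782686 (minus strand): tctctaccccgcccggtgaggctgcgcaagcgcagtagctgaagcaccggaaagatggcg
Rplp0, chr5:115559437-115559496 (plus strand): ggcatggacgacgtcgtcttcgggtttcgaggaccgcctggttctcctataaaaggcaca
Rps25, chr9:44407684-44407743 (plus strand): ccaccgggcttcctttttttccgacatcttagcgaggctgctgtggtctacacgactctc
Rpl7l1 and Rplp0 show that both a paralog and a core gene can lack the run at the annotated start, which says only that these letters are not within that window.

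Of the 76 core genes, 56 had an entry in the promoter table, and 27 of these (48.2%) had a TOP-like run at 1 or more of their annotated starts, against 21.2% of all 27025 genes in the table. The share was 6 of 14 (42.9%) for other genes with TOP mRNAs, mainly translation factors, 17 of 69 (24.6%) for mitochondrial ribosomal protein genes and 9 of 40 (22.5%) for ribosome assembly genes. From 250 bases before the start to 50 after it, searched on both strands, CCGGAAGT (bound by ETS factors) was in 17.9% of the core promoters and 4.31% of all promoters, GGGCGG (bound by Sp1) in 60.7% and 38.2%, and AAGATGGC (bound by YY1) in 8.93% and 3.19%. These shares count genes with a match at any annotated start. The same motifs were in 32.5%, 70.0% and 0.0% of the assembly genes and in 17.4%, 49.3% and 17.4% of the mitochondrial ribosomal protein genes. A share above that of all genes was thus not particular to the core genes. TGCTGA, a part of the Maf recognition element and not the whole of it, was in 12.5% of the core promoters and 21.7% of all promoters. CACGTG, the E-box bound by Myc, was in 6 of the 56 core promoters and 8.09% of all promoters, and TATAAA was likewise in 6 of the 56 and in 15.7% of all. Matches of different motifs may overlap, and a match describes letters, not a bound site.

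The targeted gene was read by 2 probes, and both followed the labels. At chr8:118227736-118227795 (mm9, the build of the probe annotation) the Maf probe had a signal of 12.6 in c-Maf-/- cells, not well above background, against 15101 in c-Maf+/- cells, at least 636-fold lower. The second Maf probe read 5.96 in c-Maf-/- cells, against 541 in c-Maf+/- cells, at least 22.8-fold lower. Whether either lies in the deleted stretch is not given in the sources used here. Well above background were 44.9% of the 59305 non-control spots of the c-Maf-/- array and 45.3% of those of the c-Maf+/- array. Csf1r, the M-CSF receptor gene that defines macrophages, had mean signals of 37597 and 36734, while Mertk, a receptor for dying cells, had 73.5 and 271. All 8 neutrophil markers were below 0, with a median log2 difference of -1.11 and summed signals of 54965 in c-Maf-/- cells and 99560 in c-Maf+/- cells, and in such bulk RNA fewer cells of a type and less RNA per cell cannot be told apart. Other marker lists also differed from 0. All 4 stromal markers were below 0, with a median of -0.64, Dcn at -0.95, Col1a1 at -0.88 and 3 past -0.32, while their sums (4702 in c-Maf-/- cells, 4760 in c-Maf+/- cells) rest mostly on Kdr (4238 and 4074, with probes at an SD of 0.77). Of 4 dendritic cell markers 3 were below 0, with a median of -0.33, Itgax at -1.09 and sums of 2422 and 2689. The 7 macrophage markers were split, with a median of -0.03 and sums of 192312 and 179176, Mertk (-1.91), Fcgr1 (-0.58) and Cd68 (-0.40) lying low and Lyz2 (0.58) high. Lymphocyte markers had 2 above and 2 below 0 and sums of 2088 and 2624 over 5 genes, and the 2 measured of 5 erythroid markers were above 0 (median 0.77, sums 129 and 81.9), with Hbb-b1 and Alas2 not well above background. What part these other cells have in the ribosomal protein values was not tested.

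Cytosolic ribosomal protein mRNAs were at almost the same level in both genotypes. A gene's value is the mean over its probes of log2 signal relative to the 75th percentile of the array, c-Maf-/- minus c-Maf+/-, so that 0 means no difference and equal raw signals give -0.03. Signals are in the scanner's arbitrary units, and for a gene with several probes they are averaged over them (geometric means for members, arithmetic means for other genes). Over the 83 measured members the median difference was 0.0012, with 43 above 0 and 40 below, against a median of -0.0227 over all 17158 genes measured, of which 45.8% were above and 54.2% below 0. The 76 core genes ran from -0.16 to 0.13 with a median of -0.0010. The sign of these medians is set by the scaling, since the core median was 0.06 with loess, 0.07 with quantile and 0.13 with spike-in scaling, while the median of all genes was 0.01, 0.01 and 0.11.

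The spread was the clearest feature of the group. Among the 83 members, 75 (90.4%) lay within 0.1 of 0, while 5516 of the 17158 genes (32.1%) did. The SD over the 76 core genes was 0.0489, against 0.394 over all genes. The smaller of the thresholds used was a log2 difference of 0.32. None of the 76 reached it on either side, where 12.6% of all genes were higher and 15.8% lower by at least that much (28.4% in all). At 2-fold, where 1.37% of all genes were higher and 1.49% lower (2.86% in all), 0 of the 83 members were found. Rps4l was the single member past 0.32. Under 11 other settings of scaling, background correction, probe summary, filtering and naming, between 93.3% and 100% of the core genes lay within 0.1 of their own median, and between 31.9% and 40.9% of all genes did.

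**Figure D1:**
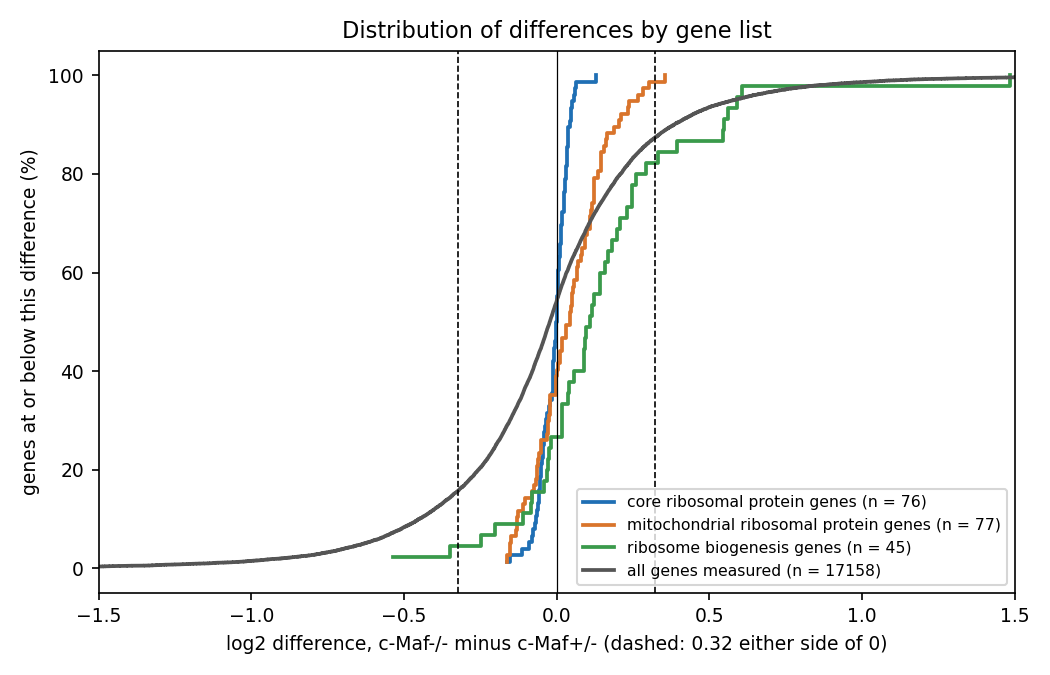
Share of genes (%) at or below each log2 difference (c-Maf-/- minus c-Maf+/-), for core ribosomal protein genes (blue, 76), mitochondrial ribosomal protein genes (orange, 77), ribosome assembly genes (green, 45) and all genes measured (grey, 17158). The core genes climb in a near-vertical step between -0.16 and 0.13, inside the dashed lines at 0.32 either side of 0, while the curve of all genes extends far beyond both.

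Differences of dim genes carry more noise on arrays, so the core genes were set beside other genes of the same brightness. Core genes had levels between 2.51 and 852 times the 75th percentile, and the 7321 other genes in that range had an SD of 0.320, with 41.3% within 0.1 of 0 and 20.5% past 0.32. For the middle 80% of core levels, between 43.5 and 536 times the percentile, the SD was 0.0376 over 60 core genes and 0.264 over 1676 other genes. In that band 59 of 60 core genes (98.3%) and 885 of 1676 other genes (52.8%) were within 0.1, and 0 core genes and 15.3% of the others were past 0.32.

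**Figure D2:**
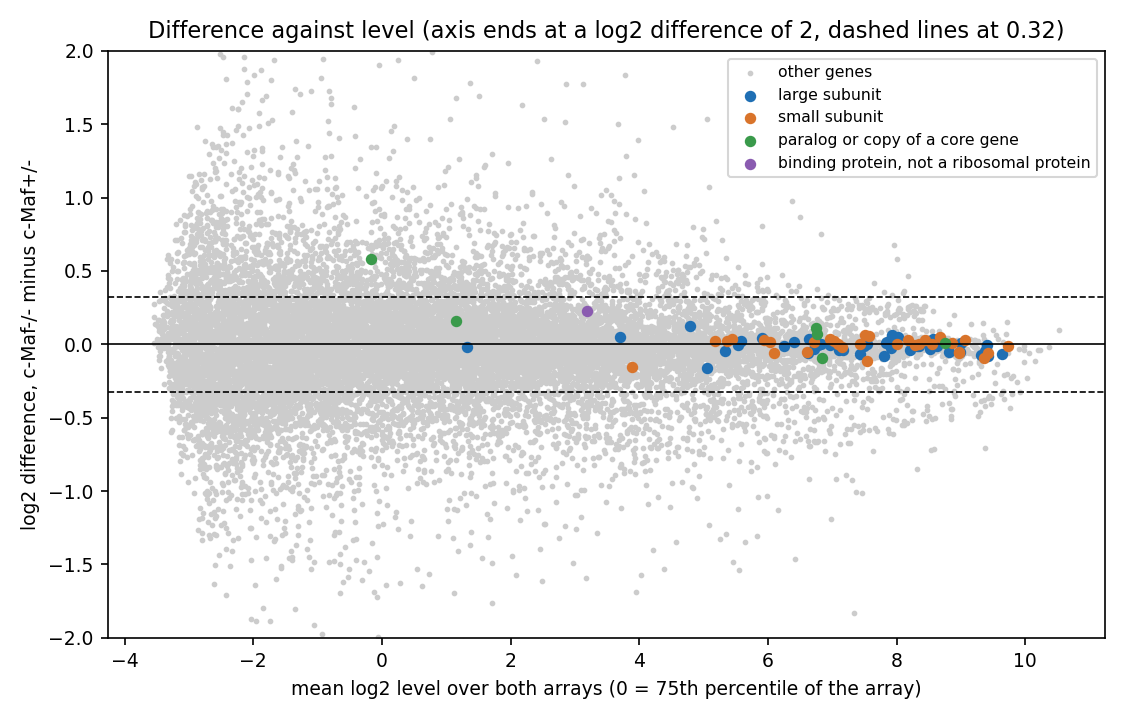
Log2 difference (c-Maf-/- minus c-Maf+/-) of each gene against its mean log2 level over both arrays, where 0 is the 75th percentile, with members coloured by role and other genes grey. Core genes form a flat band to the right, within the dashed lines at 0.32, in a range where grey points still extend past them, and the green point highest above the band is Rps4l at 0.58.

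Each difference was also set beside the error that the scanner software attaches to a signal. Combined over the 2 arrays this error was 0.204 (log2) for the lowest and the median member probe alike, since it is close to a fixed proportion of a bright signal, and at most 0.348. The difference exceeded its own combined error for 5 of 188 member probes (2.66%), against 41.6% of 23071 probes of all genes. These 5 belonged to Rps4l, Rps19bp1, Rpl13a, Rpl15 and Rps25. The SD between probes of a gene had a median of 0.0336 over the 61 members with several probes. It was 0.104 over all genes with several probes, members included. Neither this contrast nor that of probes past their error was matched for brightness, and some probes of the same member overlap. The widest gap between probes was 0.261, in Rps25. Signs were shared by all probes of 33 of these 61 genes and mixed in 28, and the share over all genes with several probes is not given here. A Rpl23 probe printed on 10 spots gave signals of 2182 and 2064 in c-Maf-/- and c-Maf+/- cells and a difference of 0.05 with an SD of 0.04 over spots.

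Large subunit genes had a median of -0.0098 (18 above 0, 27 below) and small subunit genes a median of 0.0038 (19 above, 12 below). Of all genes, 45.8% were above 0 and 54.2% below. The medians of the subunits were not compared by a test. With loess, quantile and spike-in scaling both medians were above 0, at 0.05, 0.06 and 0.12 for the large subunit and 0.07, 0.07 and 0.13 for the small subunit.

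**Figure D3:**
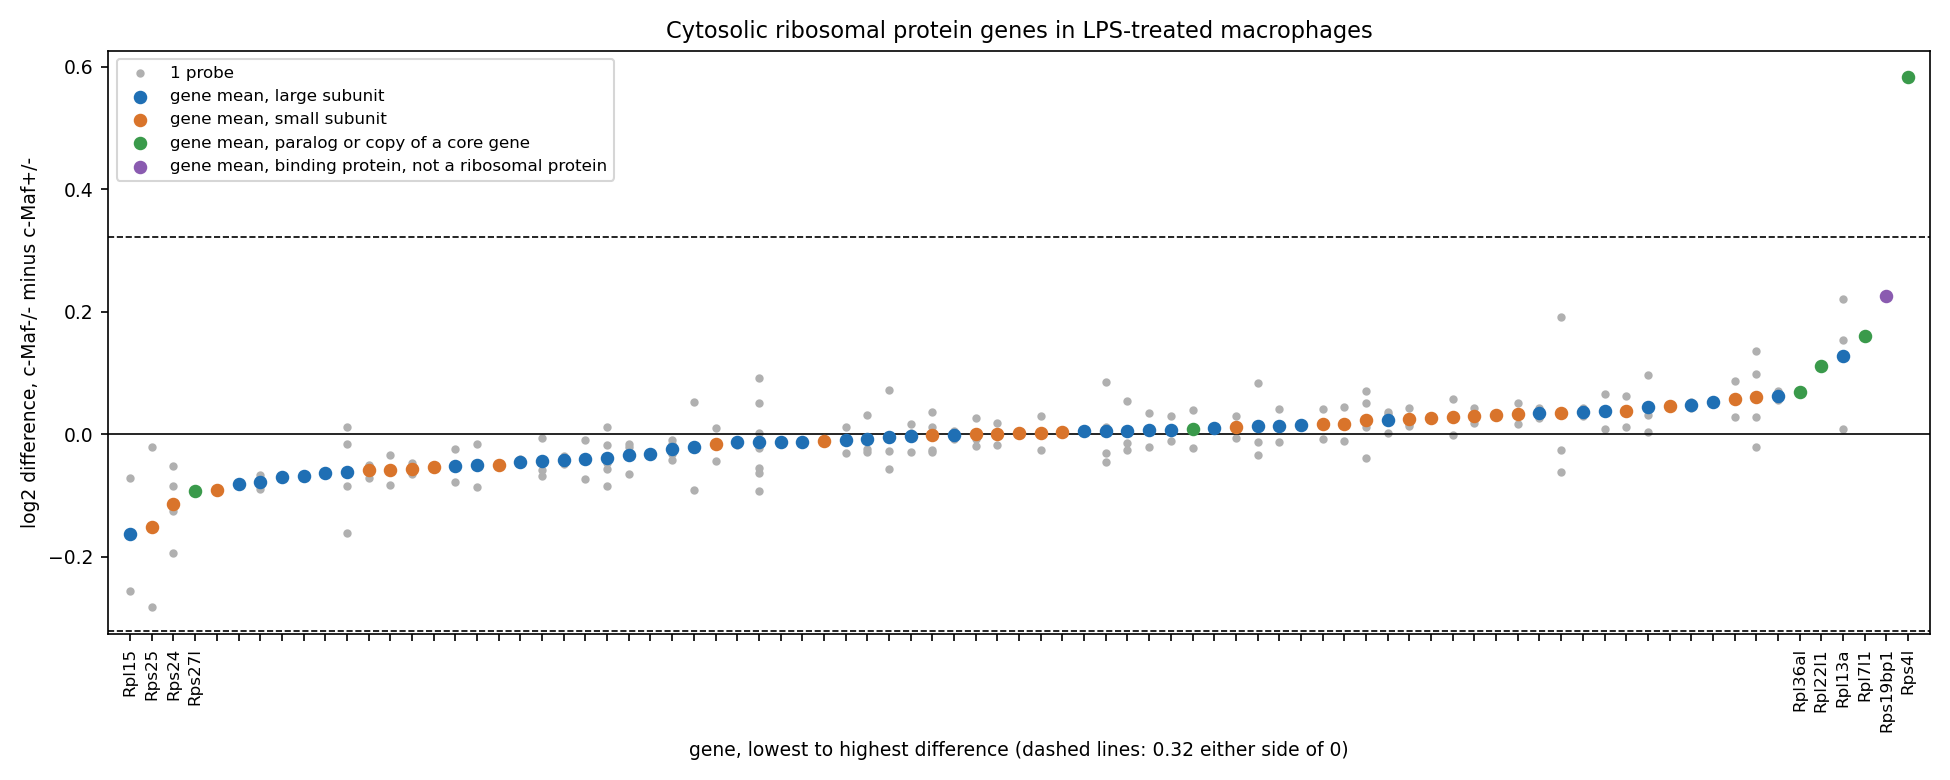
Log2 difference (c-Maf-/- minus c-Maf+/-) of each of the 83 measured members, ordered from lowest to highest, with large dots for gene means coloured by role, grey dots for single probes and names at the 4 lowest and 6 highest. The curve is flat from Rps27l (-0.09) to Rpl36al (0.07), and of the gene means that of Rps4l alone lies beyond the dashed lines at 0.32.

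Within the large subunit, the stalk proteins that recruit elongation factors were slightly below 0. Rplp2, read by 1 of the brightest member probes, had signals of 197455 in c-Maf-/- cells and 205132 in c-Maf+/- cells (-0.08), Rplp1 had 147325 and 149934 (-0.05) and Rplp0 had 107035 and 107650 (-0.03), and all 3 were above 0 with spike-in scaling, at 0.05, 0.08 and 0.10. Rpl5 and Rpl11, which bind the 5S ribosomal RNA and, outside the ribosome, restrain the p53 ligase Mdm2, were at -0.03 and -0.01. The proteins lining the exit tunnel, Rpl4, Rpl17 and Rpl39, lay at -0.06, -0.01 and -0.04, with 7 probes for Rpl17 between -0.09 and 0.09. In the small subunit, Rps2, Rps3 and Rps15, which sit around the mRNA channel and decoding site, were at 0.00072, 0.02 and -0.06. None of these differences exceeded the error of their probes. The same holds for the other 2 of the brightest members, Rps14 of the small subunit (251316 in c-Maf-/- and 248893 in c-Maf+/- cells, -0.01) and Rpl35 of the large subunit (229677 and 236578, -0.07), and for Rpl21, dimmest of the core genes by the mean over its 3 probes (737 and 734, -0.02). The mean for Rpl21 joins 1 bright probe (30783 in c-Maf-/- and 30721 in c-Maf+/- cells) and dim ones (114 and 108, 114 and 119), so it does not show a scarce mRNA.

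Rpl15, a core protein of the large subunit, was the lowest member, and its 2 probes differed in size but not in sign. One probe read 77243 in c-Maf-/- cells, against 79750 in c-Maf+/- cells (-0.07), and the other 1108 against 1300 (-0.26), giving -0.16 with an SD of 0.13 between probes. Rps25, a small subunit protein known for its role in translation from internal ribosome entry sites, was next. Its brighter probe had 79372 and 79144 in c-Maf-/- and c-Maf+/- cells (-0.02) and its dimmer one 220 and 262 (-0.28), for a mean of -0.15 (SD 0.18). For both genes the distance from 0 thus came mainly from the dimmer probe, and with the brightest probe alone they were at -0.07 and -0.02. Rpl15 and Rps25 were the only members below 0 under all 12 settings tried.

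Rps24, a small subunit protein whose last exons are spliced in several ways, had 4 probes that were all below 0. Signals in c-Maf-/- and c-Maf+/- cells were 4596 and 5166 (-0.19), 49740 and 50687 (-0.05), 177598 and 190284 (-0.13) and 195335 and 203423 (-0.08). The last pair of probes share a run of 53 bases, so they are close to 1 reading. The mean was -0.11 (SD 0.06 between probes), and it was 0.02 with spike-in scaling. Among the 8 lowest members were also Rplp2, the paralog Rps27l and Rpl41, which encodes the smallest ribosomal protein (184256 in c-Maf-/- and 190104 in c-Maf+/- cells, -0.07).

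Rpl13a stood highest among the core genes. It is a large subunit protein that human monocytic cells also release into the GAIT complex, a repressor of inflammatory mRNA translation. Its brightest probe had 48763 in c-Maf-/- and 47613 in c-Maf+/- cells (0.01), and 2 dimmer probes had 3681 and 3103 (0.22) and 3539 and 3126 (0.15). The mean was 0.13 with an SD of 0.11 between probes, and the 2 dimmer probes share a run of 26 bases, so they are not independent readings. Rpl29, also of the large subunit, came next among the core genes, with 73803 and 69419 (0.06).

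The 2 differences farthest from 0 belonged to Rps4l and Rps19bp1, neither of them a core gene. Rps4l, which RefSeq lists as a transcribed pseudogene related to Rps4x, had a signal of 324 in c-Maf-/- cells and 212 in c-Maf+/- cells, a log2 difference of 0.58. It is read by a single probe, and the combined error of that probe was 0.210. Rps4x, the X-linked core gene, was at -0.02. Rps19bp1, also known as an activator of the deacetylase Sirt1, had 2920 in c-Maf-/- and 2452 in c-Maf+/- cells (0.23), and Rps19, the core protein it binds, was at 0.03.

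The other measured paralogs differed by less. Rpl7l1 had 698 in c-Maf-/- and 613 in c-Maf+/- cells (0.16), against -0.02 for Rpl7. Rpl22l1 had 32910 and 29917 (0.11), with Rpl22 at 0.05. Rpl36al, a copy of the X-linked Rpl36a, had 32982 and 30875 (0.07), with Rpl36a at -0.0040. Rps27l, known as a p53 target, had 32888 and 34456 (-0.09), with Rps27 at -0.0019, and it was 0.04 with spike-in scaling. Rps12l2 and Rps12 were at 0.0087 and 0.03. In 5 of the 6 measured pairs the paralog lay farther from 0 than its core gene, though each of Rpl22l1, Rpl36al, Rps27l, Rpl7l1 and Rps4l was read by 1 probe.

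**Figure D4:**
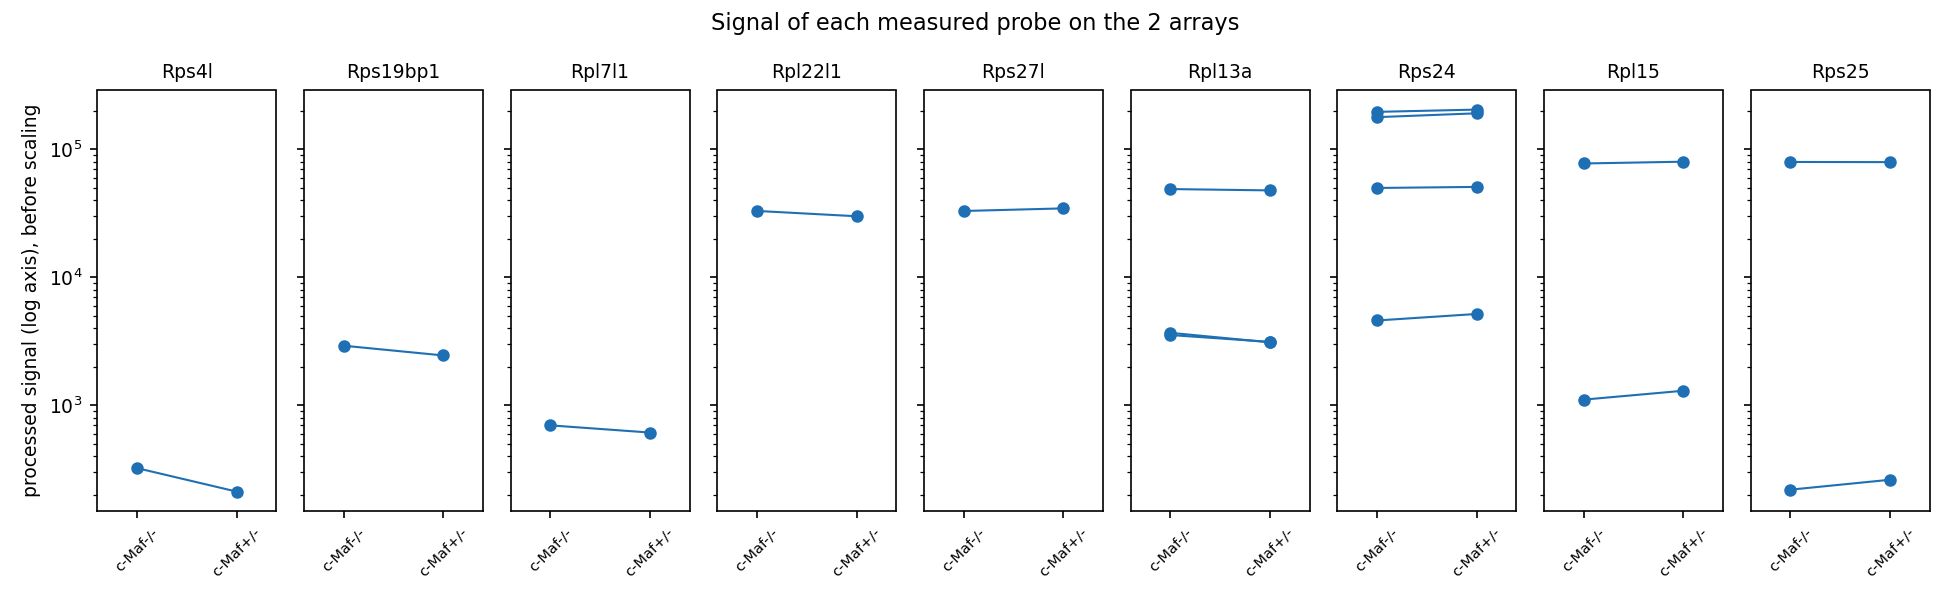
Processed signal (log axis, before scaling) of each measured probe of 9 members, with c-Maf-/- on the left and c-Maf+/- on the right and a line joining the readings of 1 probe. The steepest lines are those of Rps4l (324 and 212), Rps19bp1 (2920 and 2452) and the dimmer probes of Rps25 (220 and 262) and Rpl15 (1108 and 1300). A dimmer Rpl13a probe (3681 and 3103) is about as steep, and the other lines are closer to level.

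Some probe sequences are shown as printed on the array, 60 bases each, with their mm9 coordinates and no base in capitals. The first is the single Rps4l probe, which carries that gene's difference. The other 3 are, of the probes of Rps24, Rps25 and Rpl15, those nearest to 0 (-0.05, -0.02 and -0.07), and they do not carry the lower values of these genes.
Rps4l probe A_55_P2001628, chr6:148304043-148304102: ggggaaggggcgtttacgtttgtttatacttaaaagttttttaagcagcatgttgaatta
Rps24 probe A_55_P1993880, chr14:25311190-25312666: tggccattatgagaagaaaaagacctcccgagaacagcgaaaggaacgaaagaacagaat
Rps25 probe A_55_P2137186, chr9:44216951-44218094: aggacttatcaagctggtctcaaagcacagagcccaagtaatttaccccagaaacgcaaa
Rpl15 probe A_55_P1990457, chr14:19101657-19101716: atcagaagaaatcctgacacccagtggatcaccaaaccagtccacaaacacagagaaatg
Coordinates of the Rps24 and Rps25 probes span 1477 and 1144 bases, more than the probe's own length, so these probes join separate genomic blocks. Among the 180 core probes, 40 such probes had a median of -0.0026 and the 139 others with coordinates -0.011. For 11 probes of Rpl13, Rpl36, Rps27, Rps29 and Rps4x the coordinates lie on another chromosome than the gene, and their differences ran from -0.07 to 0.08 with a median of -0.026. Ribosomal protein genes have many near-identical processed copies, so signals of such probes cannot be assigned to 1 locus.

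Deviations were larger in dim probes. The 21 core probes with a signal under 10000 on both arrays had an SD of 0.137 and a median of 0.043, against 0.0446 and -0.010 for the 159 brighter ones. Probes with a GC share at or above the median of the core probes had a median of 0.0062 (96 probes), and the 84 others -0.023. Rps27a shows how 1 dim probe moves a gene: its probes had 239904 and 239818 in c-Maf-/- and c-Maf+/- cells (-0.03), 107616 and 110326 (-0.06), and 85.7 and 73.7 (0.19), for a mean of 0.03.

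By chromosome, the core genes lay close to 0 as well. They lie on 19 chromosomes, and the medians of the chromosomes with at least 3 core genes ran from -0.05 on chromosome 2 to 0.02 on chromosome 15. Chromosome 7 held 14 of them, with a median of 0.02. Chromosome 14 held 2, Rpl15 and Rps24, which are 2 of the 3 lowest members. The 4 X-linked core genes, Rpl10, Rpl36a, Rpl39 and Rps4x, ran from -0.04 to -0.0040. Xist, the RNA of the inactive X chromosome in female cells, passed the background flag in c-Maf+/- cells alone, with readings of 5.43 and 6.25 in c-Maf-/- cells against 263 and 115 in c-Maf+/- cells for its 2 probes (at least 11.1-fold and 4.85-fold lower). The sex of the mice is not given in the sources used here and cannot be told apart from genotype.

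Core genes were also split by a TOP-like start. The run was sought at annotated starts alone, so genes counted without it can still have TOP mRNAs. By the same rule it was found in 6 of 14 other genes with TOP mRNAs. The 27 core genes with the run had a median of -0.012, from -0.16 (Rpl15) to 0.13 (Rpl13a). The 29 core genes without it had a median of -0.00028, from -0.15 (Rps25) to 0.05 (Rpl22). The 7 core genes with TGCTGA in the promoter had a median of -0.045, and the 49 without it -0.00028. The 5 with AAGATGGC were at 0.05 and the 51 without at -0.0040. Medians with and without the other motifs were nearer to each other. They were -0.013 and 0.00022 for CCGGAAGT, 0.00022 and -0.0029 for GGGCGG, 0.015 and -0.0029 for CACGTG, and -0.0016 and -0.0019 for TATAAA. All of these medians lay within 0.1 of 0, and no split was tested.

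Ribosomal protein genes with other names lay within the range of the core genes. Fau, a ubiquitin-like protein fused to a small subunit protein, was at -0.02 (200199 in c-Maf-/- and 198656 in c-Maf+/- cells), and Gnb2l1, now called Rack1, a small subunit scaffold, at -0.04 (197105 and 198997). Translation factors and other genes with TOP mRNAs had a median of -0.012 over 19 genes, 8 above 0 and 11 below (45.8% and 54.2% of all genes), with 0 past 0.32 (28.4% of all genes). The farthest were Pabpc1, the poly(A)-binding protein gene, with 54152 and 63152 (-0.25), the histone chaperone gene Nap1l1 (-0.23) and Eif4b, an initiation factor gene (0.22). The TOP median was 0.04, 0.05 and 0.12 with loess, quantile and spike-in scaling.

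Mitochondrial ribosomal protein genes, which encode the separate ribosome of that organelle, were spread more widely. All 77 were measured, with a median of 0.043, 47 above 0 and 30 below (45.8% and 54.2% of all genes), and an SD of 0.119. A single one, Mrpl50, was past 0.32 (0.35), followed by Mrpl45 (0.30) and Mrps18b (0.28), all 3 coding for mitochondrial ribosome proteins, and 0 were lower by as much. In all 98.7% of these genes lay within 0.32 of 0, against 71.6% of all genes, so a narrow spread was found in this list too.

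Genes for ribosome assembly were spread more widely still and lay mostly above 0. Of 45 measured, 33 were above 0 and 12 below (45.8% and 54.2% of all genes), the median was 0.11 and the SD 0.311. By at least 0.32, 8 of 45 were higher (12.6% of all genes were) and 2 of 45 lower (15.8% of all genes). Rrp1b, a nucleolar protein of large subunit assembly, had 105 in c-Maf-/- cells and 36.9 in c-Maf+/- cells (1.48) by 1 dim probe, and 0.73 with normexp background correction. Gnl3, which encodes nucleostemin, had 343 and 222 (0.61), and Tsr1, a small subunit assembly factor, had 257 and 168 (0.59). Utp15 (0.56), Rrs1 (0.55), the RNA polymerase I subunit gene Polr1e (0.55), Nob1 (0.39) and Bysl (0.33) were the others. Lower were Wdr43 (2452 and 3506, -0.54) and Ncl, the nucleolin gene (-0.35, SD 0.39 between 2 probes). Other assembly genes, chosen after their values were seen, lay near 0, with Npm1 (nucleophosmin) at -0.02 over 5 probes, Fbl (fibrillarin) at 0.04 and Nop56 at -0.03. Restricted to the 15 assembly genes with at least 2 probes the median was 0.02.

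Genes that control ribosomal protein synthesis had a median of 0.02 over 14 genes. By at least 0.32, 2 were higher and 2 lower, close to the shares of all genes (12.6% and 15.8%). Eif4ebp1 and Eif4ebp2, repressors of cap-dependent translation that mTOR switches off, were higher, with 10684 in c-Maf-/- and 7000 in c-Maf+/- cells (0.58) and 1771 and 1167 (0.58). Mxd1, an antagonist of Myc, had 16726 and 27240 (-0.72), and Max, the shared partner of both, 15660 and 20075 (-0.38). Myc had 345 and 419 (-0.31), Larp1 21871 and 23500 (-0.11) and Mtor was at 0.01. Of the p53 branch that senses free ribosomal proteins, Trp53 had 139 and 202 (-0.56), Mdm2 had 55634 and 65146 (-0.25), and the 3 probes of Cdkn1a disagreed (mean 0.07, SD 0.81).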

How the data were processed

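Gene expression was read on 2 one-colour Agilent arrays, 1 per genotype, from LPS-treated macrophages. The deposited values are spot intensities made by the authors with Agilent Feature Extraction 10.7.3.1 (protocol GE1_107_Sep09, array design 028005), per the file headers, and the processed signal is already background-subtracted. The other deposited columns used are the mean and background median intensity, the error of the processed signal, and flags for outliers, saturation and signal well above background.

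Each log2 processed signal was set relative to the 75th percentile of its array's non-control spots, which was 296 (c-Maf-/-) or 291 (c-Maf+/-) as a signal. Outlier-flagged spots (149 for c-Maf-/-, 136 for c-Maf+/-) were left out, 0 were saturated, and repeated spots were averaged per probe. Gene values are means over probes well above background on both arrays. Where only the c-Maf+/- array passed that flag, the fold is a lower bound against the higher of the dim probe's own signal and 24.2, the lowest c-Maf-/- signal that passed. The combined error adds the relative signal errors of both arrays in quadrature on the log2 scale. With 1 array per genotype the number of arrays limits every comparison, and genes were described by counts past a log2 difference of 0.32 and past 2-fold. The computation was tested on simulated data with known shifts. Alternatives were quantile, loess (span 0.3) and spike-in scaling (8 probes), centring on all genes, normexp with offset 50 (limma 3.58.1, R 4.3.3), no background subtraction, other probe summaries, no filter on dim probes, genes with at least 2 probes, and RefSeq names. Tables were made with Python 3.11.15, numpy 2.4.6 and pandas 2.3.3.

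The members, lists and roles were chosen with earlier results of these data known. Named by rule were Maf, the 8 highest and 8 lowest members, the paralogs, stalk and 5S members, the 3 brightest and 3 dimmest members, members not measured, the 3 genes of each other list farthest from 0 and Myc; other genes were named by role or after their values were seen. Some genes that this rule takes are left out of the text. Transcript starts and promoters came from RefSeq (GRCm38.p6). Probe coordinates are those of the files (mm9), and no protein sequences were used here.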

Additional observations from a re-analysis of the deposited data

How the results depend on the processing

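No paired analysis was possible because each genotype has 1 array, which also leaves no replicate to leave out. The median of the 83 members, 0.0012 as reported, was 0.065 with loess, 0.069 with quantile and 0.13 with spike-in scaling. For the large subunit the same settings gave 0.053, 0.062 and 0.12, for the small subunit 0.069, 0.073 and 0.13, and for TOP translation factors 0.043, 0.052 and 0.12. Spike-in scaling, which rests on 8 probes whose raw signals had a median log2 difference of -0.10 before any scaling, moved the mitochondrial median to 0.17 and the assembly median to 0.24, and assembly genes with at least 2 probes gave 0.017. Members above 0 numbered 73 with loess, 75 with quantile and 81 with spike-in scaling, and members below 0 numbered 10, 6 and 2, or 26 when centred on the median of all genes. The median of all genes, -0.0227 as reported, also rose, to 0.012 with loess, 0.011 with quantile and 0.11 with spike-in scaling. Shares of all genes above 0 under these scalings are not given here, so the counts do not separate the members from the whole array. The count higher by at least 0.32 was 0 with at least 2 probes, 0 with core genes only (a setting chosen after seeing the data) and 2 with spike-in scaling, where Rps4l was at 0.71 and Rps19bp1 at 0.36. The count lower by at least 0.32 was 1 with RefSeq names, from a probe pair renamed Rps23rg1 (-0.48), and 1 without the filter on dim probes, from Rpl39l (-0.53), which is not above background (6.26 in c-Maf-/- cells, 8.88 in c-Maf+/- cells). Of the 139 alternative values of these medians and counts, 112 moved by less than their spread or stayed within 1.5 times. Of the 83 members, 32 kept 1 sign under every setting tried, 30 of them above 0, and the signs of the other 51 depended on the setting. Loess, quantile and spike-in scaling and centring raised the core median to 0.063, 0.068, 0.13 and 0.022, which favours a kept sign above 0. The share of all genes that kept 1 sign is not given here, so these counts do not single out the members. Among named genes, Rrp1b was at 0.89 without background subtraction and 0.73 with normexp, and Cdkn1a at -0.21 with the brightest probe or the median over probes. The causes of these shifts were not tested.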

Other observations

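Some names that the rule left out as pseudogenes ("-ps") were well above background on both arrays. Several were bright, with differences in the range of the core genes. Rpl5-ps2 had 107240 in c-Maf-/- and 102618 in c-Maf+/- cells (0.04), and Rps12-ps16 had 109328 and 111269 (-0.05). Rpl34-ps1 was at -0.07, and the pair of Rpl31-ps12 probes at -0.02 and 0.02. Rps15a-ps6 stood apart, as a dim probe with 79.0 in c-Maf-/- and 144 in c-Maf+/- cells (-0.90), while Rps15a itself was at 0.06. Like Rps4l, it is a dim reading under a pseudogene's name, farther from 0 than any core gene, and the pair lie on opposite sides of 0.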
